A study of Mus musculus with 15 samples.

Results

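The 48 genes described here encode parts of the machinery that copies DNA and supplies its building blocks. They were chosen by gene name, as the rows of the deposited gene tables whose name is on a list of 48 replication genes, out of 56748 genes in all. The rule uses no measured value, but the list was chosen with earlier results of these data known. All 48 passed the filter on low counts, which left 15619 genes for testing, and the lowest count of any member in any library was 230. RNA was sequenced from mouse Th2 cells, a class of helper T cell known for secreting IL-4, IL-5 and IL-13, in 15 libraries. Conditional knockout (cKO) cells carried the genotype VEC-Cre;Asb2fl/fl, and control cells carried Asb2fl/fl alone, so both genotypes share the floxed Asb2 alleles. The VE-cadherin promoter drives Cre in endothelial cells, including those that form blood precursors in the embryo, so the deletion is not limited to T cells. Naive CD4+ cells from the spleens of female mice were primed for 3 days on anti-CD3ε with anti-CD28, IL-2, IL-4 and anti-IFNγ, then kept for 3 days in IL-2 and IL-4 without antibodies. From day 5, stimulated cells had 24 h with anti-CD3ε on the plate (3 µg/ml) and anti-CD28 in solution (2 µg/ml), which non-stimulated cells did not. The 4 groups were stimulated cKO (n = 4), non-stimulated cKO (n = 3), stimulated control (n = 5) and non-stimulated control (n = 3). The labels name no animal for a library, and p-values here speak only of the scatter among libraries, which may be technical.

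DNA replication starts when the origin recognition complex, with Cdc6 and Cdt1, loads the ring of Mcm2 to Mcm7 onto DNA, a step that geminin blocks by binding Cdt1. Cdc45 and the GINS complex then turn the ring into an active helicase, RPA coats the exposed single strands, and polymerases alpha, delta and epsilon copy them with the sliding clamp PCNA and its loader RFC. T cells build this machinery as they leave rest and divide, and E2F transcription factors are known to drive many of its genes at entry into S phase. The comparisons here ask how the levels of these RNAs differed with renewed stimulation of already activated cells, and between cKO and control cells. Asb2 encodes ASB2, the substrate receptor of a ubiquitin ligase.

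Libraries held 17083701 to 24185341 estimated counts. Asb2, the deleted gene, stood at 9.58, 9.59, 9.44 and 9.36 CPM (counts scaled to library size) in stimulated cKO cells, against 34.1, 38.0, 32.3, 31.2 and 31.9 CPM in stimulated control cells, a log2 fold change of -1.82 ± 0.18 (SE; edgeR adjusted p = 3.4e-04). In non-stimulated cells it stood at 12.7, 22.7 and 22.1 CPM in cKO and 34.7, 25.6 and 49.7 CPM in control libraries, which did not overlap, and the difference of -0.94 ± 0.21 was not called (edgeR adjusted p = 1). All 5 CD4 T cell markers and all 6 Th2 markers had counts in every group, but so had the 5 B cell and 2 CD8 T cell markers. Summed CD4 T cell markers ran from 1450 to 1970 CPM and summed Th2 markers from 859 to 4510 CPM. Of the Th2 markers, Il5 ran from 1.54 to 1510 CPM over the libraries. Lyz2, Hba-a1 and Hbb-bs, which define myeloid and erythroid cells, were at 0 in every library. Summed markers of myeloid cells ran from 2.82 to 6.32 CPM in stimulated libraries and from 13.2 to 22.8 CPM in non-stimulated ones, and those of NK cells from 0.243 to 2.03 and from 3.1 to 18.2 CPM; their part in the results below was not tested. Over all libraries, summed B cell markers reached at most 6.97 CPM, summed CD8 T cell markers lay between 5.83 and 28.8 CPM, and the endothelial genes Cdh5, Kdr and Tek stayed at or under 0.181 CPM. The fourth endothelial marker, Pecam1, which T cells can also express, carried nearly all of that list's sum, which ran from 44.4 to 77.2 CPM in stimulated and from 165 to 197 CPM in non-stimulated libraries, and its part in the results was not tested. Replicate 3 of stimulated cKO cells stood apart: 9.43% of its counts were mitochondrial, against 4.36% to 6.24% in the other 14 libraries. Without it the cKO calls of Gmnn, Mcm5, Lig1 and Rrm2 described further on were lost and Pola2 was called higher, and values without it stand beside those results and beside the sums, Rfc4 and Rpa3.

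Promoter sequences of 5 members are shown because these were the genes whose stimulation calls, given further on, held under all 25 alternative settings in both genotypes, and because each holds a word of the kind that E2F factors bind. The windows are RefSeq's on build GRCm38.p6, written on the gene's strand from 250 bases before the annotated start to 50 bases after it, with matches to TTTGGCGC, TTTCGCGC or TTTCCCGC on either strand in capitals. Orc1 (ENSMUSG00000028587) lies at chr4:108579204-108579503 on the plus strand and Rfc3 (ENSMUSG00000033970) at chr5:151651159-151651458 on the minus strand; both rose on stimulation. Cdt1 (ENSMUSG00000006585) lies at chr8:122567765-122568064 on the plus strand, Mcm6 (ENSMUSG00000026355) at chr1:128359656-128359955 on the minus strand and E2f2 (ENSMUSG00000018983) at chr4:136172024-136172323 on the plus strand; all 3 fell.
Orc1: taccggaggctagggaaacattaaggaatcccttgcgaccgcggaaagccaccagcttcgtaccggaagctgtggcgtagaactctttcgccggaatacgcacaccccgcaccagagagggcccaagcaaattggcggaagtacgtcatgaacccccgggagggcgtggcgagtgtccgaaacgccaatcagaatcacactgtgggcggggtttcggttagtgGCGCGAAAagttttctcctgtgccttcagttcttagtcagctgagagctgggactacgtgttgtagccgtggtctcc
Rfc3: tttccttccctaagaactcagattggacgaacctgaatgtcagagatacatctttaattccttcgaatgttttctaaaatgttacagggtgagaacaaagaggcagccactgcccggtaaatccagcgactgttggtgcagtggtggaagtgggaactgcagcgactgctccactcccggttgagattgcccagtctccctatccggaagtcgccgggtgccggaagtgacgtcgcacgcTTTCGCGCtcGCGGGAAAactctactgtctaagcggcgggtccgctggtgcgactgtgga
Cdt1: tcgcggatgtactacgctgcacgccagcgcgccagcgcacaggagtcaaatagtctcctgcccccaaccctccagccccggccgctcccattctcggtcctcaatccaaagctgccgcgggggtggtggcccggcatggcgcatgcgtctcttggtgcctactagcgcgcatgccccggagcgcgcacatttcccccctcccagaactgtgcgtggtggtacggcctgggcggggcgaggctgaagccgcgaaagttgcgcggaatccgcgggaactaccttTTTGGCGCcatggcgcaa
Mcm6: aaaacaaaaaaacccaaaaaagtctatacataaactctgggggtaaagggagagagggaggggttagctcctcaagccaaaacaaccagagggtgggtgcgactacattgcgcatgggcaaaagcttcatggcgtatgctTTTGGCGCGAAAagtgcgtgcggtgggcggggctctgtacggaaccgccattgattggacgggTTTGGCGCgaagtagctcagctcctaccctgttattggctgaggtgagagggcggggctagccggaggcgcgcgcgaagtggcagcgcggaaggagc
E2f2: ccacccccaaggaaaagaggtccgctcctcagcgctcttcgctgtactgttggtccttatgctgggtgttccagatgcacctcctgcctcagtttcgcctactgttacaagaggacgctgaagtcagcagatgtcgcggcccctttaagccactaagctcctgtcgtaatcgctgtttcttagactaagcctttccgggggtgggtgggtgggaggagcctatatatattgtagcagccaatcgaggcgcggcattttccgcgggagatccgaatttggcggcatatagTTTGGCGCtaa
In Orc1 and Rfc3 the capitals lie within 50 bases of the start, and Rfc3 has a word on each strand. Mcm6 has 3 words, of which a pair overlap as 1 stretch of capitals read from both strands. In Cdt1 and E2f2 the word lies after the annotated start. Such words stand in members that rose and in members that fell, among genes shown partly for holding one. E2f2 has a second RefSeq window, at chr4:136180532-136180831, which holds no such word.

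Levels between genes were compared in TPM, which are scaled by transcript length and by library. Pcna, the sliding clamp, was the most abundant member in all 4 groups, at 185 ± 27.6 TPM in stimulated cKO, 202 ± 14.2 in non-stimulated cKO, 186 ± 16 in stimulated control and 183 ± 1.11 in non-stimulated control cells (SD). Mcm6 and Rrm2, the small subunit of ribonucleotide reductase, held the next places in all 4 groups, and their order differed by stimulation. Mcm6 averaged 94.8 ± 17.6 TPM in stimulated and 144 ± 14.3 TPM in non-stimulated cKO cells, while Rrm2 averaged 116 ± 22.3 and 135 ± 15.9 TPM in the same groups, and their ranges overlapped within each of these groups. Rfc3, a clamp loader subunit, was among the 5 highest members in stimulated cells of both genotypes, at 90.8 ± 21.1 TPM in cKO and 91.2 ± 11.9 TPM in control cells. At the low end stood Gins3, a GINS subunit, with 6.38 ± 1.02 TPM, and E2f1, an activating E2F, with 7.16 ± 1.58 TPM in stimulated cKO cells. In the GENCODE M21 annotation, 16 of the 48 members share exon bases with another gene, most often on the other strand, among them Fen1 (78.8% of its exon bases, with Gm10143), Gins2 (67.3%, with Gse1), Chaf1a (52.5%, with Ubxn6), Orc1 (10.8%), Orc6, Cdc45, Rfc4 and Pole2. Whether strand was used in counting is not given in the sources used here, so their values are uncertain to that extent. The overlapping genes differed in level. Mean counts over the 15 libraries were 2.2 for Gm10143 against 802 for Fen1, and 5.6 for Gm12743 against 722 for Orc1. They were 1550 for Gse1 against 395 for Gins2, 2450 for Vps35 against 722 for Orc6, and 581 for Ubxn6 against 1470 for Chaf1a.

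**Figure D1:**
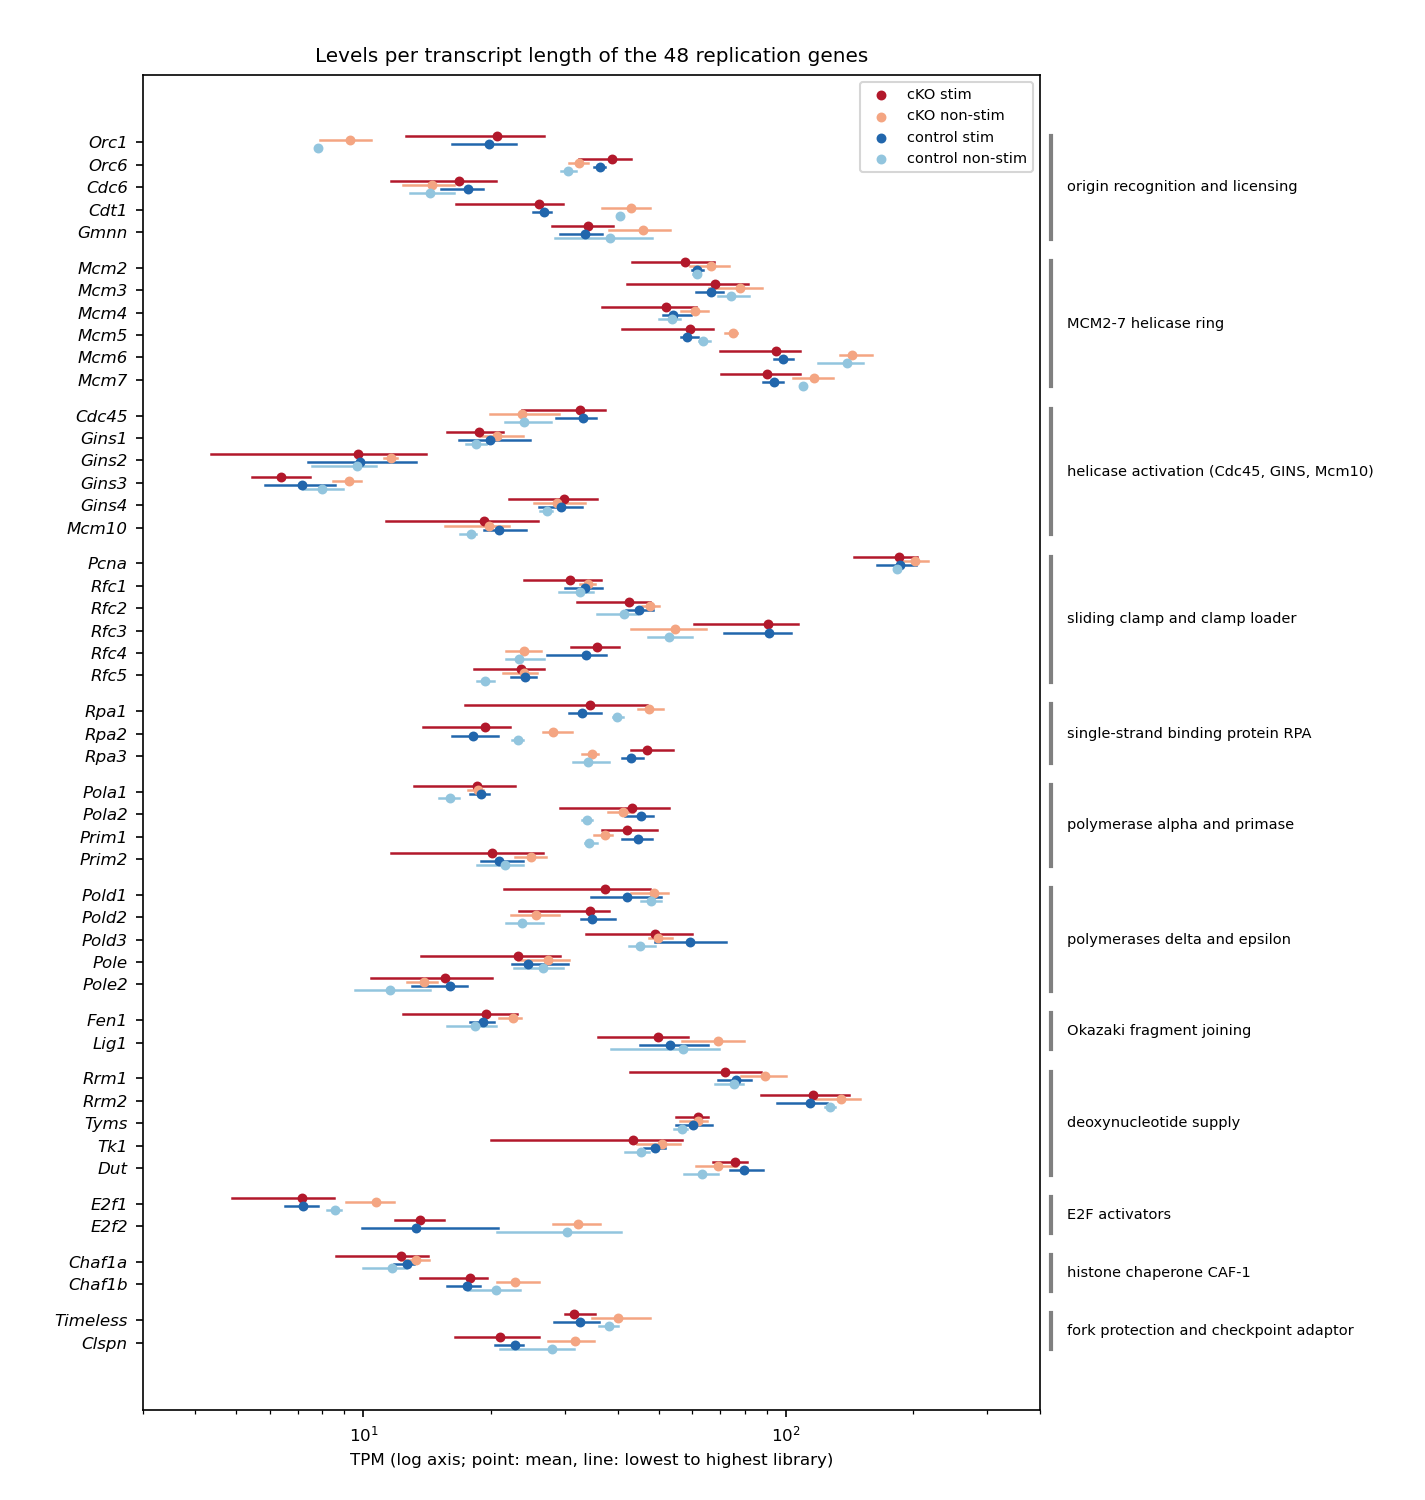
TPM of the 48 replication genes on a log axis, by role, in stimulated and non-stimulated cKO and control cells; points are means and lines run from the lowest to the highest library. Pcna is the highest row in every group, at 185 TPM on average in stimulated cKO cells, and Gins3, E2f1 and non-stimulated Orc1 are among the lowest.

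On stimulation the replication genes moved in both directions. In cKO cells 9 of the 48 rose and 14 fell, and in control cells 9 rose and 12 fell (edgeR quasi-likelihood test, adjusted p under 0.05 over all genes tested). That is 47.9% of the members in cKO, against 53.8% of all 15619 genes (26.7% higher, 27.1% lower), and 43.8% of the members in control, against 50.6% of all genes (25.4% higher, 25.2% lower), so the members were called at close to the background rate. Their median log2 fold change was -0.12 in cKO and -0.11 in control cells, beside -0.01 and 0.00 over all genes. Changes were small: the log2 fold change passed 1 in either direction in 2 members of either genotype, Orc1 and E2f2, which is 4.17% of members against 21.8% of all genes in cKO and 19.2% in control cells. The median size of change was 0.25 in cKO and 0.20 in control members, and 0.48 and 0.43 over all genes. The lowest mean of a member was 15.9 CPM, the genes tested include lower ones, and no set matched for level was compared. The same 7 members rose in both genotypes, Orc1, Cdc45, Rfc3, Rfc4, Pold2, Pold3 and Pole2. The same 11 fell in both, Cdt1, Mcm5, Mcm6, Mcm7, Gins3, Rpa1, Rpa2, Rrm2, E2f1, E2f2 and Clspn, and 22 members were called in neither. The shares of all genes called alike in both genotypes are not given here, so this overlap is not shown to be particular to the members.

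**Figure D2:**
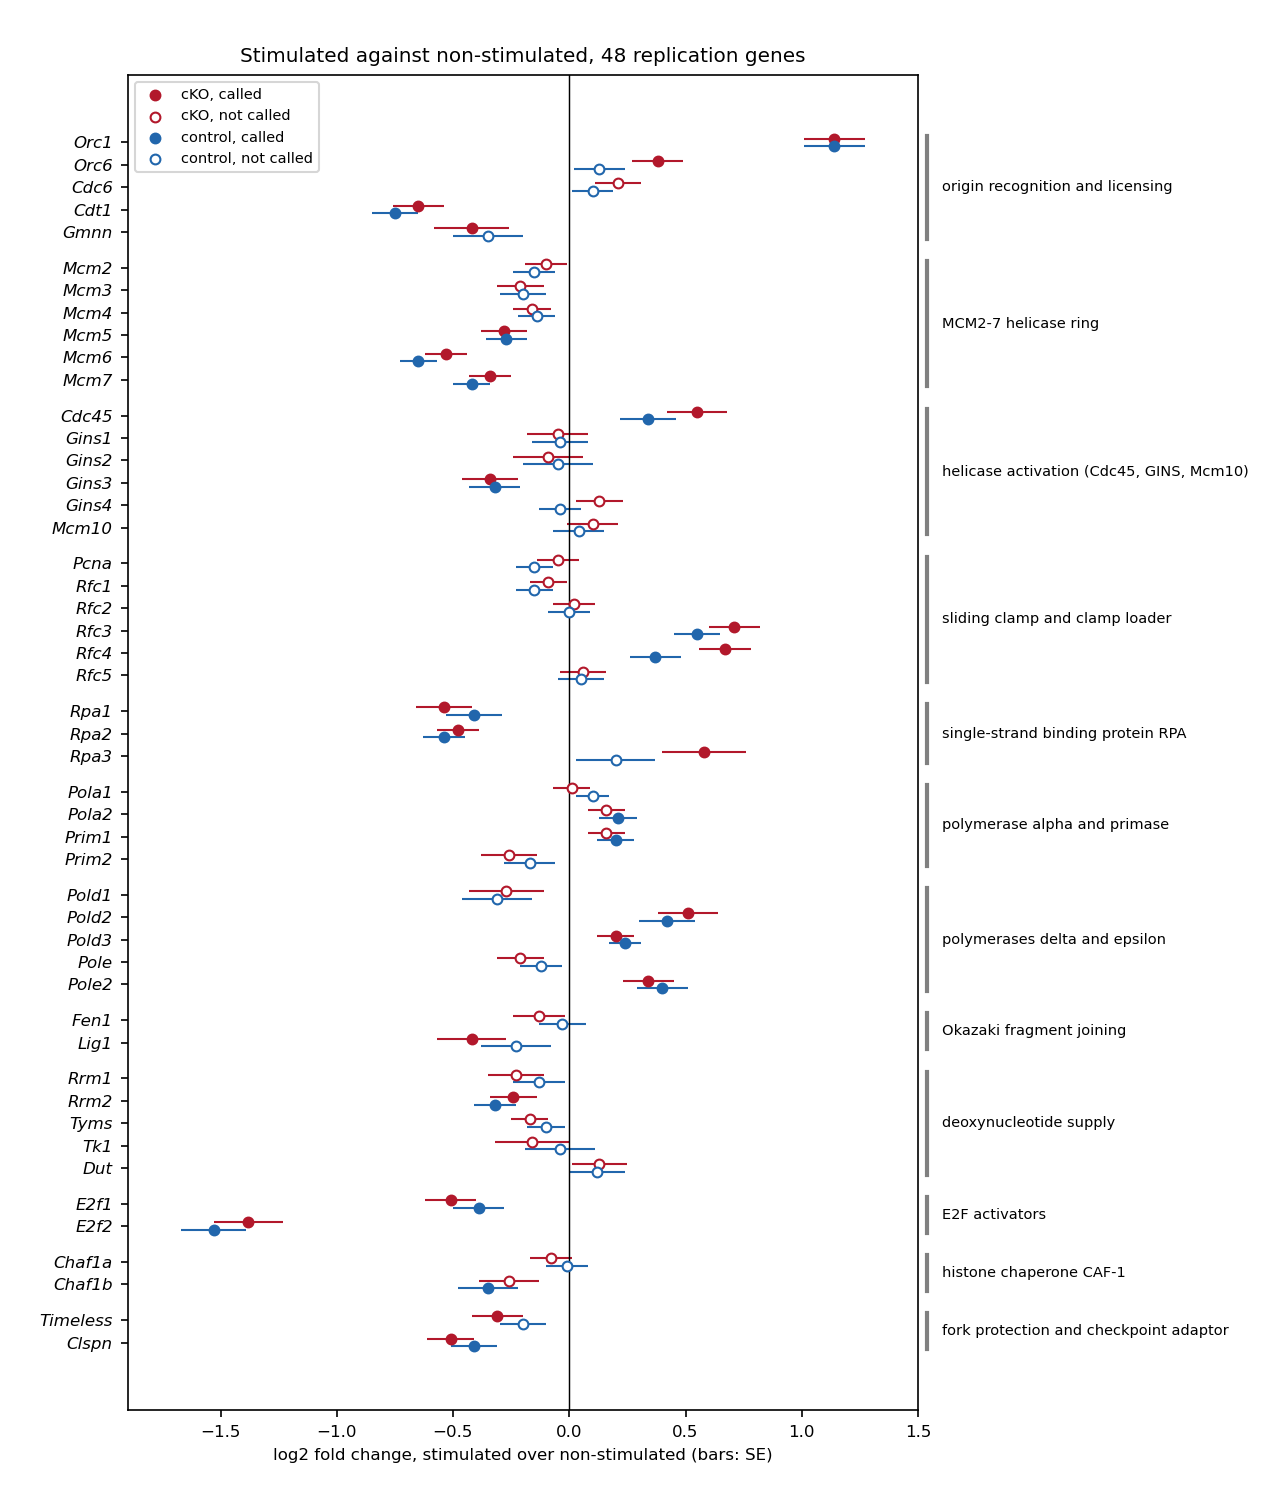
log2 fold change of each of the 48 replication genes, stimulated over non-stimulated, in cKO (red) and control (blue) cells, with SE bars and filled points for called genes, grouped by role. Orc1 lies farthest to the right at 1.14 in both genotypes and E2f2 farthest to the left at -1.38 in cKO and -1.53 in control cells.

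On the TPM scale the split differed. With limma on log2(TPM + 0.1), 5 members rose and 8 fell in cKO cells, against 38.6% of all genes called, and 9 rose and 3 fell in control cells, against 37.5%. The median over all genes also moved on that scale, to -0.09 in cKO and 0.14 in control cells, and the members' medians stood at -0.22 and 0.03, so the members' median was below that of all genes in both genotypes on either scale. On log2(TPM + 0.1) the cKO calls of Orc6, Gmnn, Mcm5, Rpa1, Pold2, Pole2, Lig1, Rrm2 and Timeless were lost and Pold3 changed sign. In control cells the calls of Mcm5, Mcm7, Gins3, Rpa1, Rpa2, Pold3, Pole2, Rrm2, E2f1, Chaf1b and Clspn were lost, and Rpa3 and Dut were called higher. Summed over the 48 members, CPM was 4025 ± 235 in stimulated and 4553 ± 331 in non-stimulated cKO cells, and 4008 ± 240 in stimulated and 4574 ± 146 in non-stimulated control cells (SD). Summed TPM was 2010 ± 370 and 2231 ± 184 in stimulated and non-stimulated cKO cells, and 2058 ± 78 and 2029 ± 91 in control cells. Replicate 3 of stimulated cKO cells had the lowest sum, 1486 TPM, against 1925 to 2429 TPM in the other 14 libraries, and without it the stimulated cKO sums were 4085 ± 248 CPM and 2184 ± 148 TPM (SD, n = 3). CPM and TPM are shares of each library's RNA, and in bulk samples fewer cells that replicate DNA and less of these RNAs per cell cannot be told apart.

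Among the licensing genes, Orc1 rose and Cdt1 fell in both genotypes. Orc1, the largest subunit of the origin recognition complex, had 55.7, 48.1, 38.8 and 50.2 CPM in stimulated cKO cells, against 24.0, 22 and 19.5 CPM in non-stimulated cKO cells. It had 48.8, 46.6, 54.4, 42.0 and 39.9 CPM in stimulated control cells, against 20.5, 19.0 and 23.4 CPM in non-stimulated control cells. Every stimulated library was above every non-stimulated one, a 2.21-fold difference in both genotypes (log2 1.14 ± 0.13 in each; edgeR adjusted p = 1.5e-06 in cKO and 1.0e-06 in control). Cdt1, the loader of the helicase ring, had 63.5, 52.3, 46.4 and 51.7 CPM in stimulated cKO cells, against 91.9, 88.3 and 71.5 CPM in non-stimulated cKO cells. In control cells it had 56.6, 52.6, 55.6, 48.8 and 50.6 CPM with stimulation and 90.2, 84.4 and 91.3 CPM without. Again no stimulated library reached a non-stimulated one, with log2 fold changes of -0.65 ± 0.11 in cKO and -0.75 ± 0.10 in control cells (edgeR adjusted p = 6.4e-05 and 8.4e-06).

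The other 3 licensing genes changed less. Orc6, another subunit of the complex, had 45.3, 38.8, 47.2 and 35.9 CPM in stimulated cKO cells, against 34.6, 30.1 and 31.8 CPM in non-stimulated cKO cells, and rose by 0.38 ± 0.11 (edgeR adjusted p = 9.3e-03). In control cells its libraries overlapped, with 39.1, 37.3, 43.3, 34.2 and 32.9 CPM with stimulation and 36.1, 32.3 and 33.9 CPM without, and the change of 0.13 ± 0.11 was not called. Gmnn, which encodes geminin, fell in cKO by 0.42 ± 0.16 on the log2 scale with overlapping libraries (edgeR adjusted p = 0.037), and that call was lost when any of 6 libraries was left out (adjusted p 0.054 to 0.19), replicate 3 of stimulated cKO cells among them (-0.43, adjusted p = 0.054). Its control value was -0.35 ± 0.15 and was not called. Cdc6, the loader's partner, was called in neither genotype, at 0.21 ± 0.10 in cKO and 0.10 ± 0.09 in control. On the TPM scale Orc1 made up 34.3% ± 4.95 of the summed Orc1 and Orc6 level in stimulated cKO cells, against 22.2% ± 2.91 without stimulation, and 35.2% ± 2.42 against 20.5% ± 0.808 in control cells (SD, a description with no test).

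Within the helicase ring, 3 of 6 subunits fell in each genotype and none rose. That is 50% called in each genotype, close to the 53.8% of all genes in cKO and 50.6% in control cells. Mcm6 changed most, with 283, 257, 261 and 257 CPM in stimulated cKO cells, against 416, 361 and 367 CPM in non-stimulated cKO cells. Stimulated control cells had 261, 264, 280, 239 and 252 CPM of Mcm6, against 441, 419 and 364 CPM without stimulation. The groups did not overlap in either genotype, and Mcm6 fell by 0.53 ± 0.09 in cKO and by 0.65 ± 0.08 in control cells on the log2 scale (edgeR adjusted p = 7.3e-05 and 4.2e-06). Mcm7 fell by 0.34 ± 0.09 and 0.42 ± 0.08, and Mcm5 by 0.28 ± 0.10 and 0.27 ± 0.09. The Mcm5 call was lost without any of 5 libraries in cKO (adjusted p up to 0.082; -0.24 and 0.071 without replicate 3 of stimulated cells) and without any of 4 in control cells (up to 0.081). Mcm2, Mcm3 and Mcm4 were not called, with log2 values between -0.21 and -0.10 in both genotypes. The ring holds its subunits in equal numbers. On the TPM scale Mcm6 made up 22.5% ± 0.512 of the summed TPM of Mcm2 to Mcm7 in stimulated cKO cells, against 26.6% ± 1.63 without stimulation, and 22.8% ± 0.652 against 27.6% ± 2.28 in control cells (SD).

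Of the factors that activate the helicase, Cdc45 rose and Gins3 fell. Cdc45 had 67.0, 63.6, 63.4 and 62.6 CPM in stimulated cKO cells, against 40.6, 54.4 and 36.8 CPM in non-stimulated cKO cells. It had 62.7, 67.8, 61.6, 60.5 and 60.1 CPM in stimulated control cells, against 46.7, 41.9 and 60.0 CPM in non-stimulated control cells. The groups did not overlap, although in control cells replicate 3 without stimulation lay just below the lowest stimulated library, and the rise was 0.55 ± 0.13 in cKO and 0.34 ± 0.12 in control cells (edgeR adjusted p = 1.5e-03 and 0.028). The control call was lost without replicate 1 (0.30, adjusted p = 0.1) or replicate 2 (0.23, adjusted p = 0.17) of non-stimulated control cells. Gins3 fell by 0.34 ± 0.12 in cKO and 0.32 ± 0.11 in control cells, and these calls were lost without any of 4 and any of 2 libraries (adjusted p up to 0.078 and 0.18). Gins1, Gins2 and Gins4, its partners in the complex, and Mcm10, which helps the helicase open, were not called in either genotype. Gins4 had 37.3, 31.8, 34.9 and 35.6 CPM in stimulated cKO and 37.1, 30.4 and 28.3 CPM in non-stimulated cKO cells, and 35.2, 30.0, 34.1, 33.3 and 32.2 CPM in stimulated and 34.7, 33.2 and 33.8 CPM in non-stimulated control cells. Mcm10 had 57.4, 60.8, 45.0 and 51.1 CPM in stimulated cKO and 55.3, 53.7 and 41.2 CPM in non-stimulated cKO cells, and 57.6, 56.8, 61.0, 58.2 and 52.7 CPM in stimulated and 57.8, 52.9 and 56.2 CPM in non-stimulated control cells. For both genes the stimulated and non-stimulated libraries overlapped.

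The clamp loader changed in 2 of its 5 subunits, both upward, while Pcna itself was not called (-0.05 ± 0.09 in cKO and -0.15 ± 0.08 in control cells). With Pcna counted, 33.3% were called in each genotype, beside 53.8% of all genes in cKO and 50.6% in control cells. Rfc3 had 71.4, 61.8, 60.1 and 55.2 CPM in stimulated cKO cells, against 43.3, 38.5 and 32.3 CPM in non-stimulated cKO cells. Control cells had 65.9, 62.9, 61.7, 60.1 and 56.9 CPM with stimulation and 43.9, 38.7 and 43.3 CPM without. All stimulated libraries were above all non-stimulated ones, with a rise of 0.71 ± 0.11 in cKO and 0.55 ± 0.10 in control cells (edgeR adjusted p = 2.8e-05 and 2.3e-04). Rfc4 had 35.0, 36.4, 43.6 and 34.9 CPM in stimulated cKO cells, against 23.4, 25.9 and 21.1 CPM in non-stimulated cKO cells. In control cells its values were 35.2, 33.8, 30.3, 33.8 and 33.3 CPM with stimulation and 29.5, 22.7 and 24.8 CPM without. The groups again did not overlap, and Rfc4 rose by 0.67 ± 0.11 and 0.37 ± 0.11 (edgeR adjusted p = 6.9e-05 and 7.1e-03); the control call was lost without replicate 2 of non-stimulated control cells (0.30, adjusted p = 0.053). Without replicate 3 of stimulated cKO cells, its highest library, the cKO rise was 0.60 ± 0.11 (adjusted p = 2e-04). Rfc4 shares 12.7% of its exon bases with Eif4a2 on the other strand, whose mean count over the 15 libraries was 5390 against 601 for Rfc4. Rfc1, the large subunit, and Rfc2 and Rfc5 were not called, with log2 values from -0.15 to 0.06. Rfc3 made up 40.4% ± 2.66 of the summed TPM of the 5 subunits in stimulated cKO cells, against 29.4% ± 3.23 without stimulation, and 40.0% ± 2.19 against 31.3% ± 4.29 in control cells (SD).

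RPA, the single-strand binding protein, has 3 subunits, and the large and middle ones fell. Rpa2 had 29.5, 25.5, 27.5 and 24.7 CPM in stimulated cKO cells, against 40.3, 36.9 and 35.3 CPM in non-stimulated cKO cells. Stimulated control cells had 23.9, 27.5, 24.7, 22.6 and 25.9 CPM of Rpa2, against 36.7, 34.8 and 37.2 CPM without stimulation. These groups were fully separate, with falls of 0.48 ± 0.09 in cKO and 0.54 ± 0.09 in control cells (edgeR adjusted p = 2.8e-04 and 6.2e-05), and Rpa1 fell by 0.54 ± 0.12 and 0.41 ± 0.12. Rpa3, the small subunit, went the other way in cKO cells, with 20.4, 17, 33.3 and 17.5 CPM, against 14.8, 14 and 15.3 CPM without stimulation, and 18.9, 19.2, 20.2, 16.2 and 18.3 CPM in stimulated against 15, 14.8 and 18.8 CPM in non-stimulated control cells. The cKO groups did not overlap but the control groups did. Rpa3 rose by 0.58 ± 0.18 in cKO cells (edgeR adjusted p = 0.013), and its control value was 0.20 ± 0.17 (adjusted p = 0.38). Without replicate 3 of stimulated cKO cells, the one rich in mitochondrial counts, the cKO rise was 0.32 ± 0.12 (adjusted p = 0.036).

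Polymerases delta and epsilon showed rises in accessory subunits and none in the catalytic ones. Pold2, an accessory subunit of polymerase delta, had 59.1, 47.4, 45.1 and 47.4 CPM in stimulated cKO cells, against 34.2, 39.5 and 31.1 CPM in non-stimulated cKO cells. In control cells it had 58.0, 49.1, 51.5, 42.2 and 43.3 CPM with stimulation and 36.4, 32.5 and 40.2 CPM without. The groups were separate, with rises of 0.51 ± 0.13 in cKO and 0.42 ± 0.12 in control cells (edgeR adjusted p = 2.7e-03 and 7.7e-03); without replicate 2 of non-stimulated control cells the control value was 0.35 (adjusted p = 0.051). Pold3, another accessory subunit, had 91.7, 90.1, 88.3 and 85.3 CPM in stimulated cKO cells, against 82.2, 72.5 and 77.2 CPM in non-stimulated cKO cells, and 91.9, 97.9, 91.7, 103 and 96.9 CPM in stimulated control cells, against 80.8, 84.2 and 78.6 CPM in non-stimulated control cells. It rose by 0.20 ± 0.08 and 0.24 ± 0.07 (edgeR adjusted p = 0.032 and 8.9e-03) with no overlap, but its cKO call was lost without any of 4 libraries (adjusted p up to 0.14) and its sign turned to -0.06 on log2(TPM + 0.1). In TPM, replicate 3 of stimulated cKO cells had 33.6 of Pold3, and the others of its group 49.2, 60.1 and 52.6. Non-stimulated cKO cells had 53.8, 47.3 and 48.3 TPM, and no TPM fit without replicate 3 of stimulated cKO cells was made. Pole2, an accessory subunit of polymerase epsilon, rose by 0.34 ± 0.11 in cKO and 0.40 ± 0.11 in control cells; without replicate 3 of non-stimulated cKO cells the cKO value was 0.30 (adjusted p = 0.07). It shares 8.5% of its exon bases with Gm49384 on the same strand. The catalytic subunits were not called: Pold1 stood at -0.27 ± 0.16 in cKO and -0.31 ± 0.15 in control cells, and Pole at -0.21 ± 0.10 and -0.12 ± 0.09.

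Polymerase alpha with primase, which lays down the primers, was not called in any of its 4 subunits in cKO cells, and 2 of 4 rose in control cells. That is 0% and 50% called, beside 53.8% of all genes in cKO and 50.6% in control cells. Pola2, the accessory subunit, had 86.7, 84.5, 79.1 and 87.7 CPM in stimulated cKO cells, against 79.4, 79.2 and 67.9 CPM in non-stimulated cKO cells, and 82.8, 86.4, 85.8, 82.2 and 82.4 CPM in stimulated control cells, against 73.1, 68.3 and 75.9 CPM in non-stimulated control cells. Its cKO libraries overlapped and its control libraries did not, with values of 0.16 ± 0.08 (edgeR adjusted p = 0.091) and 0.21 ± 0.08 (adjusted p = 0.027). Without replicate 3 of stimulated cKO cells, Pola2 was called higher in cKO cells at 0.20 ± 0.08 (edgeR adjusted p of 0.05 after rounding). Prim1, the catalytic primase subunit, rose in control cells by 0.20 ± 0.08 (adjusted p = 0.043) and stood at 0.16 ± 0.08 in cKO cells (adjusted p = 0.12). The responses, cKO minus control, differed by -0.05 ± 0.11 for Pola2 and -0.04 ± 0.11 for Prim1, and neither difference was called. The control calls of Pola2 and Prim1 were lost without any of 2 and any of 6 libraries (adjusted p up to 0.12 and 0.14). Pola1, the catalytic polymerase subunit, and Prim2, the large primase subunit, were not called in either genotype.

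At the joining of lagging-strand fragments, Lig1, the DNA ligase, had 127, 109, 90.0 and 94.5 CPM in stimulated cKO cells, against 154, 122 and 146 CPM in non-stimulated cKO cells, and 120, 108, 137, 101 and 87.5 CPM in stimulated control cells, against 144, 140 and 105 CPM in non-stimulated control cells. Libraries overlapped in both genotypes. Lig1 fell in cKO cells by 0.42 ± 0.15 on the log2 scale (edgeR adjusted p = 0.028), a call lost without any of 4 libraries (adjusted p up to 0.11; -0.34 and 0.086 without replicate 3 of stimulated cells), and its control value of -0.23 ± 0.15 was not called. Fen1, the flap nuclease, was not called, with 45.6, 42.3, 35.1 and 39.0 CPM in stimulated cKO and 46.4, 41.5 and 45.6 CPM in non-stimulated cKO cells, and 42.0, 39.2, 43.1, 37.1 and 33.9 CPM in stimulated and 40.8, 43.1 and 35.9 CPM in non-stimulated control cells. Of 5 genes that supply deoxynucleotides, only Rrm2 was called in these fits. That is 20% in each genotype, beside 53.8% of all genes in cKO and 50.6% in control cells. Rrm2 had 225, 220, 197 and 183 CPM in stimulated cKO cells, against 268, 251 and 209 CPM in non-stimulated cKO cells, and 187, 219, 206, 193 and 202 CPM in stimulated control cells, against 247, 251 and 258 CPM in non-stimulated control cells. The cKO libraries overlapped and the control libraries did not. Rrm2 fell by 0.24 ± 0.10 in cKO (edgeR adjusted p = 0.047, lost in 13 of 15 fits that left out 1 library, with -0.21 and 0.11 without replicate 3 of stimulated cells) and by 0.32 ± 0.09 in control cells (adjusted p = 6.9e-03). Rrm1, the large reductase subunit, Tyms, which makes thymidylate, Tk1, the thymidine salvage kinase, and Dut, which removes dUTP, were not called, with values from -0.23 to 0.13.

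Genes that follow the fork fell where they were called. Clspn, the checkpoint adaptor claspin, had 83.8, 87.3, 77.1 and 77.7 CPM in stimulated cKO cells, against 131, 109 and 110 CPM in non-stimulated cKO cells, and 83, 83, 95.5, 82.1 and 80.4 CPM in stimulated control cells, against 124, 121 and 92.8 CPM in non-stimulated control cells. Replicate 3 of each control group made those groups overlap, while the cKO groups were separate. Clspn fell by 0.51 ± 0.10 in cKO and by 0.41 ± 0.10 in control cells (edgeR adjusted p = 4.8e-04 and 2.3e-03). Timeless, a fork protection protein, fell in cKO cells by 0.31 ± 0.11 (adjusted p = 0.02), a call lost without any of 3 libraries (up to 0.1), and stood at -0.20 ± 0.10 in control cells. Chaf1b, a subunit of the CAF-1 histone chaperone, had 36.4, 29.9, 31.5 and 28.1 CPM in stimulated cKO cells, against 42.5, 35.3 and 34.9 CPM in non-stimulated cKO cells, and 32.9, 27.2, 36.5, 26.7 and 26.1 CPM in stimulated control cells, against 43.5, 37.5 and 33.7 CPM in non-stimulated control cells. Its libraries overlapped in both genotypes. Chaf1b fell in control cells by 0.35 ± 0.13 (edgeR adjusted p = 0.025, lost without any of 5 libraries) and stood at -0.26 ± 0.13 in cKO cells, and its partner Chaf1a was called in neither.

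The activating E2F genes among the members, E2f1 and E2f2, fell. E2f2 had 60.8, 57.2, 49.0 and 55.1 CPM in stimulated cKO cells, against 160, 129 and 146 CPM in non-stimulated cKO cells. It had 47.6, 54.0, 46.3, 50.4 and 55.1 CPM in stimulated control cells, against 132, 197 and 109 CPM in non-stimulated control cells. Every stimulated library was below every non-stimulated one, and the fall was 2.61-fold in cKO (log2 -1.38 ± 0.15; edgeR adjusted p = 6.9e-07) and 2.88-fold in control cells (-1.53 ± 0.14; adjusted p = 1.1e-07). E2f1 had 21.7, 19.6, 17.4 and 17 CPM in stimulated cKO cells, against 28.5, 29.8 and 23.0 CPM in non-stimulated cKO cells. In control cells E2f1 had 17.3, 20.3, 18.7, 17.8 and 17.3 CPM with stimulation and 24.5, 23.7 and 23.9 CPM without. These groups did not overlap either, with falls of 0.51 ± 0.11 in cKO and 0.39 ± 0.11 in control cells (edgeR adjusted p = 8.4e-04 and 4.9e-03).

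**Figure D3:**
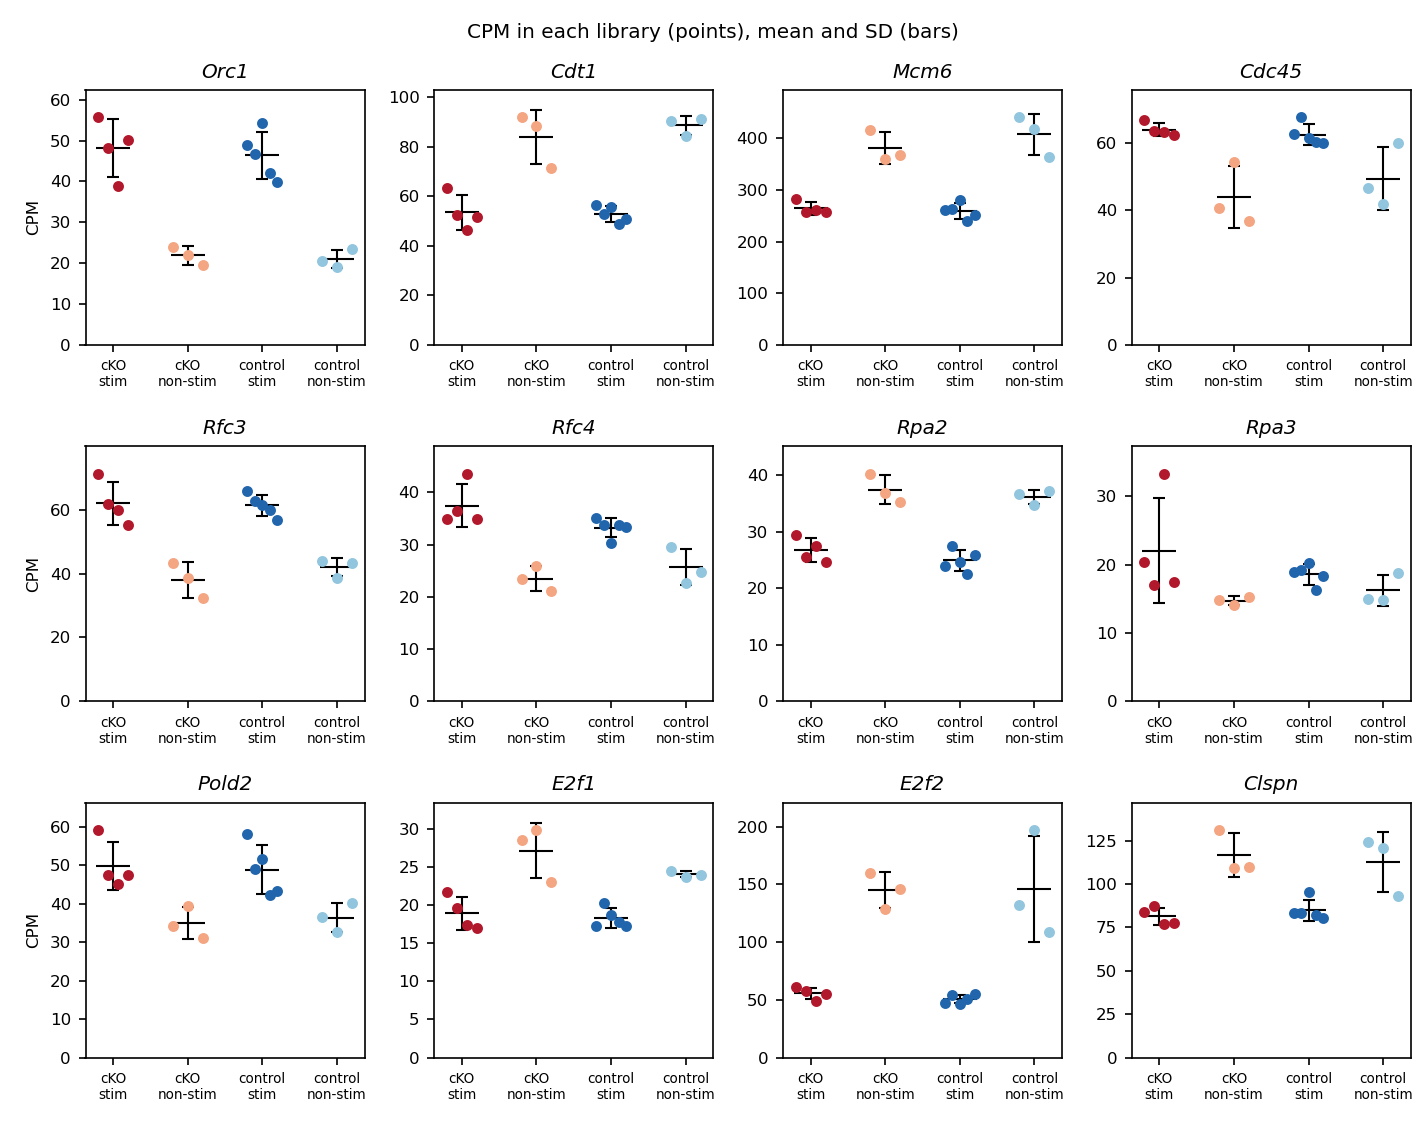
CPM of 12 replication genes in each library (points), with mean and SD (bars), in stimulated and non-stimulated cKO cells and stimulated and non-stimulated control cells. Orc1, Rfc3 and Pold2 are higher and Cdt1, Mcm6, Rpa2, E2f1 and E2f2 lower in every stimulated library than in every non-stimulated library of the same genotype, and the lone high point for Rpa3 is replicate 3 of stimulated cKO cells at 33.3 CPM.

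Other genes of the pathway moved in both directions as well. Of 37 further replication genes, 14 rose and 7 fell in cKO cells and 15 rose and 5 fell in control cells, with medians of 0.16 and 0.15. That is 56.8% called in cKO and 54.1% in control cells, close to the 53.8% and 50.6% of all genes. Pold4, the small subunit of polymerase delta, rose by 0.95 ± 0.11 in cKO and 0.50 ± 0.11 in control cells, Top1, the topoisomerase that relieves strain ahead of forks, by 0.78 ± 0.09 and 0.85 ± 0.09, and Dctd, a deaminase that feeds thymidylate synthesis, by 1.52 ± 0.19 and 1.46 ± 0.18. Asf1b, a histone chaperone, fell by 0.50 ± 0.09 and 0.79 ± 0.09. Of 11 further E2F and pocket protein genes, 3 rose and 5 fell in cKO and 2 rose and 5 fell in control cells, or 72.7% and 63.6% called. E2f5, a repressive E2F, rose by 2.02 ± 0.23 and 1.42 ± 0.22 at low levels (8.18 ± 1.32 against 2.01 ± 0.411 CPM in cKO cells, SD). E2f7, an atypical repressor, fell by 0.87 ± 0.10 and 0.68 ± 0.10, Tfdp2, an E2F partner, by 0.58 ± 0.11 and 0.74 ± 0.10, and Rbl2, the pocket protein p130, by 0.95 ± 0.13 and 0.86 ± 0.13; on log2(TPM + 0.1) Tfdp2 was called in neither genotype and E2f7 not in control cells.

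Of 14 tested cyclin and kinase genes of the G1/S step, 3 rose and 6 fell in cKO and 4 rose and 6 fell in control cells. That is 64.3% called in cKO and 71.4% in control cells, beside 53.8% and 50.6% of all genes. Ccnd2, cyclin D2, averaged 2280 ± 117 CPM in stimulated and 664 ± 19.8 CPM in non-stimulated cKO cells, and 2240 ± 134 against 741 ± 73.7 CPM in control cells (SD), rises of 1.78 ± 0.10 and 1.59 ± 0.09. The inhibitor gene Cdkn1a, p21, rose by 1.18 ± 0.16 and 0.99 ± 0.15, while Cdkn1b, p27, fell by 0.95 ± 0.15 and 1.26 ± 0.14 and Cdkn2c, p18, by 0.65 ± 0.12 and 0.96 ± 0.11. Of 20 mitosis genes none rose, 8 fell in cKO and 9 in control cells (40% and 45% called), and the median was -0.32 in both. The proliferation marker Mki67 averaged 1480 ± 108 CPM in stimulated and 2720 ± 104 CPM in non-stimulated cKO cells, and 1590 ± 157 against 2760 ± 436 CPM in control cells, and Top2a, Birc5 and Ccnb2 fell by 0.67 ± 0.12, 0.99 ± 0.13 and 1.02 ± 0.19 in cKO and by 0.66 ± 0.11, 0.92 ± 0.12 and 1.07 ± 0.18 in control cells. Of 10 translesion and repair polymerase genes, 2 rose and 4 fell in cKO and 2 rose and 3 fell in control cells, or 60% and 50% called. Polb rose by 0.87 ± 0.13 and 0.86 ± 0.12 and Polk by 0.48 ± 0.13 and 0.47 ± 0.12, while Poli fell by 0.52 ± 0.11 and 0.47 ± 0.10 and Rev3l by 0.46 ± 0.12 and 0.36 ± 0.11; on log2(TPM + 0.1) Poli was called in neither genotype, Polk not in cKO and Rev3l not in control cells.

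A RefSeq promoter window was found for 40 of the 48 members. An E2F word (TTTGGCGC, TTTGCCGC, TTTCGCGC or TTTCCCGC, either strand) was present in 16 of these 40, or 40%, against 2.6% of all 27025 genes with a window and 4.89% of the 9859 that averaged at least 10 counts per library. The 16 genes hold 22 matches, 15 of them within 50 bases of the annotated start, in 13 members. A word was present in 4 of the 7 members that rose in both genotypes (Orc1, Rfc3, Pold3, Pole2), in 7 of the 11 that fell in both (Cdt1, Mcm5, Mcm6, Mcm7, Gins3, E2f2, Clspn), in 1 of the 7 members with a window that were called in 1 genotype (Lig1) and in 4 of the 15 with a window that were called in neither (Cdc6, Mcm3, Pola1, Pold1). Of the other words searched on both strands, CCAAT was in at least 1 window of 60% of the 40 members, against 43.6% of expressed genes, GGGCGG in 75% against 68.2%, and TTTGAA in 15% against 14.8%. A match is a run of letters, not a shown binding site, and the share by direction was not tested.

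**Figure D4:**
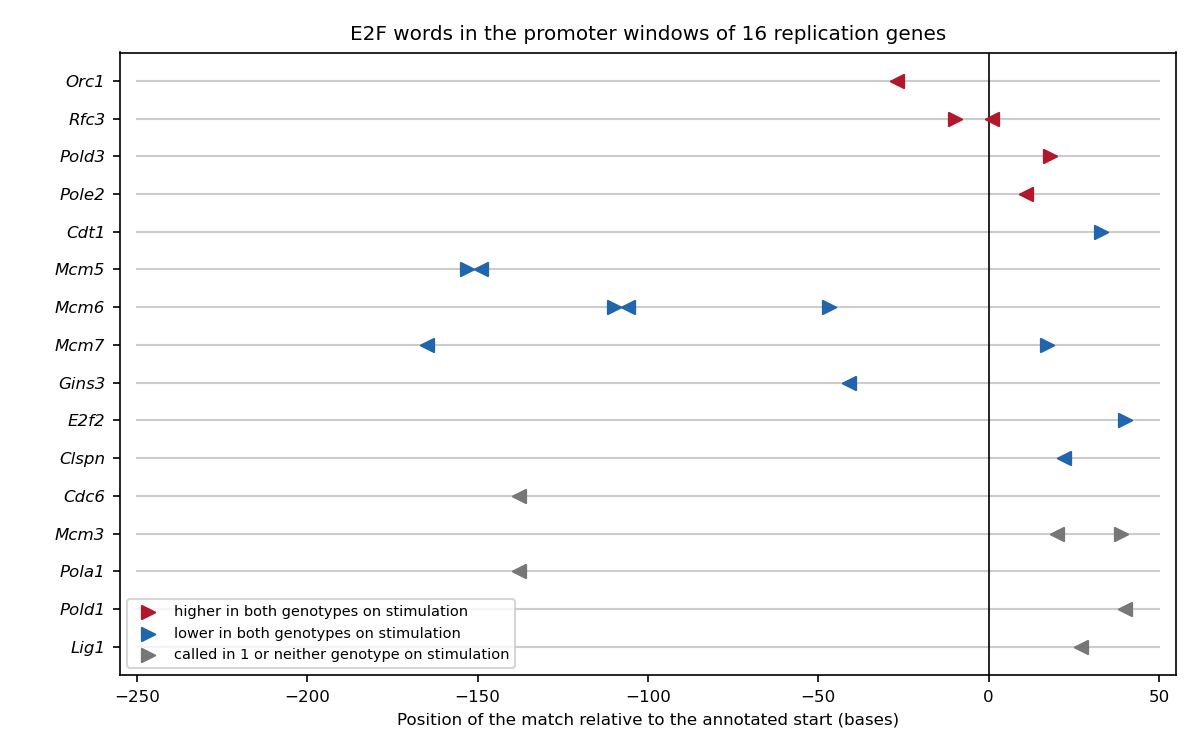
Position, relative to the annotated start in bases, of the 22 E2F words in the promoter windows of 16 replication genes; arrowheads give the strand of the match and colours the stimulation call. All 5 words of genes higher in both genotypes (red) and 6 of the 11 words of genes lower in both (blue) lie within 50 bases of the start.

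Between genotypes no replication gene was called. The difference in Asb2 RNA itself was called in stimulated but not in non-stimulated cells, and no protein values were used. In stimulated cells 0 of 48 members differed between cKO and control (0.0064% of all genes called), in non-stimulated cells 0 (0%), and for the difference between the stimulation responses 0 (0%) by edgeR, and no member had an unadjusted p under 0.05 in any of the 3. DESeq2 also called 0 members in each, against 0.032%, 0.0256% and 0.0128% of all genes. Log2 fold changes of cKO over control ran from -0.12 to 0.24 in stimulated and from -0.18 to 0.17 in non-stimulated cells. The 95% intervals of all 48 members lay within 1 log2 unit of 0 in both conditions, and those of 47 members within 0.5 in each. The members with the smallest p in stimulated cells were Rfc4 at 0.17 ± 0.10, Pold3 at -0.11 ± 0.07, Orc6 at 0.16 ± 0.10 and Rpa3 at 0.24 ± 0.16, with edgeR adjusted p = 1 for each. Without replicate 3 of stimulated cKO cells Rfc4 stood at 0.09 ± 0.10 and Rpa3 at -0.03 ± 0.11. In non-stimulated cells they were E2f1 at 0.17 ± 0.12, Fen1 at 0.16 ± 0.11, Cdc45 at -0.18 ± 0.13 and Mcm10 at -0.15 ± 0.12, again with adjusted p = 1.

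The stimulation responses of the genotypes were not shown to differ for any member. Their difference, cKO minus control, ran from -0.19 to 0.38, with 95% intervals from -0.64 to 0.91. The smallest p values belonged to Rfc4 (0.30 ± 0.15), Orc6 (0.24 ± 0.16), Gins4 (0.17 ± 0.14) and Rpa3 (0.38 ± 0.25), all with edgeR adjusted p = 1. Without replicate 3 of stimulated cKO cells the differences were 0.22 ± 0.14 for Rfc4 and 0.12 ± 0.16 for Rpa3. The 5 members called in cKO only (Orc6, Rpa3, Gmnn, Lig1 and Timeless) and the 3 called in control only (Pola2, Prim1 and Chaf1b) are thus not shown to respond differently, and 47 of 48 members had the same sign in both genotypes. The matching share over all genes is not given here. The comparisons within the genotypes share no library.

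**Figure D5:**
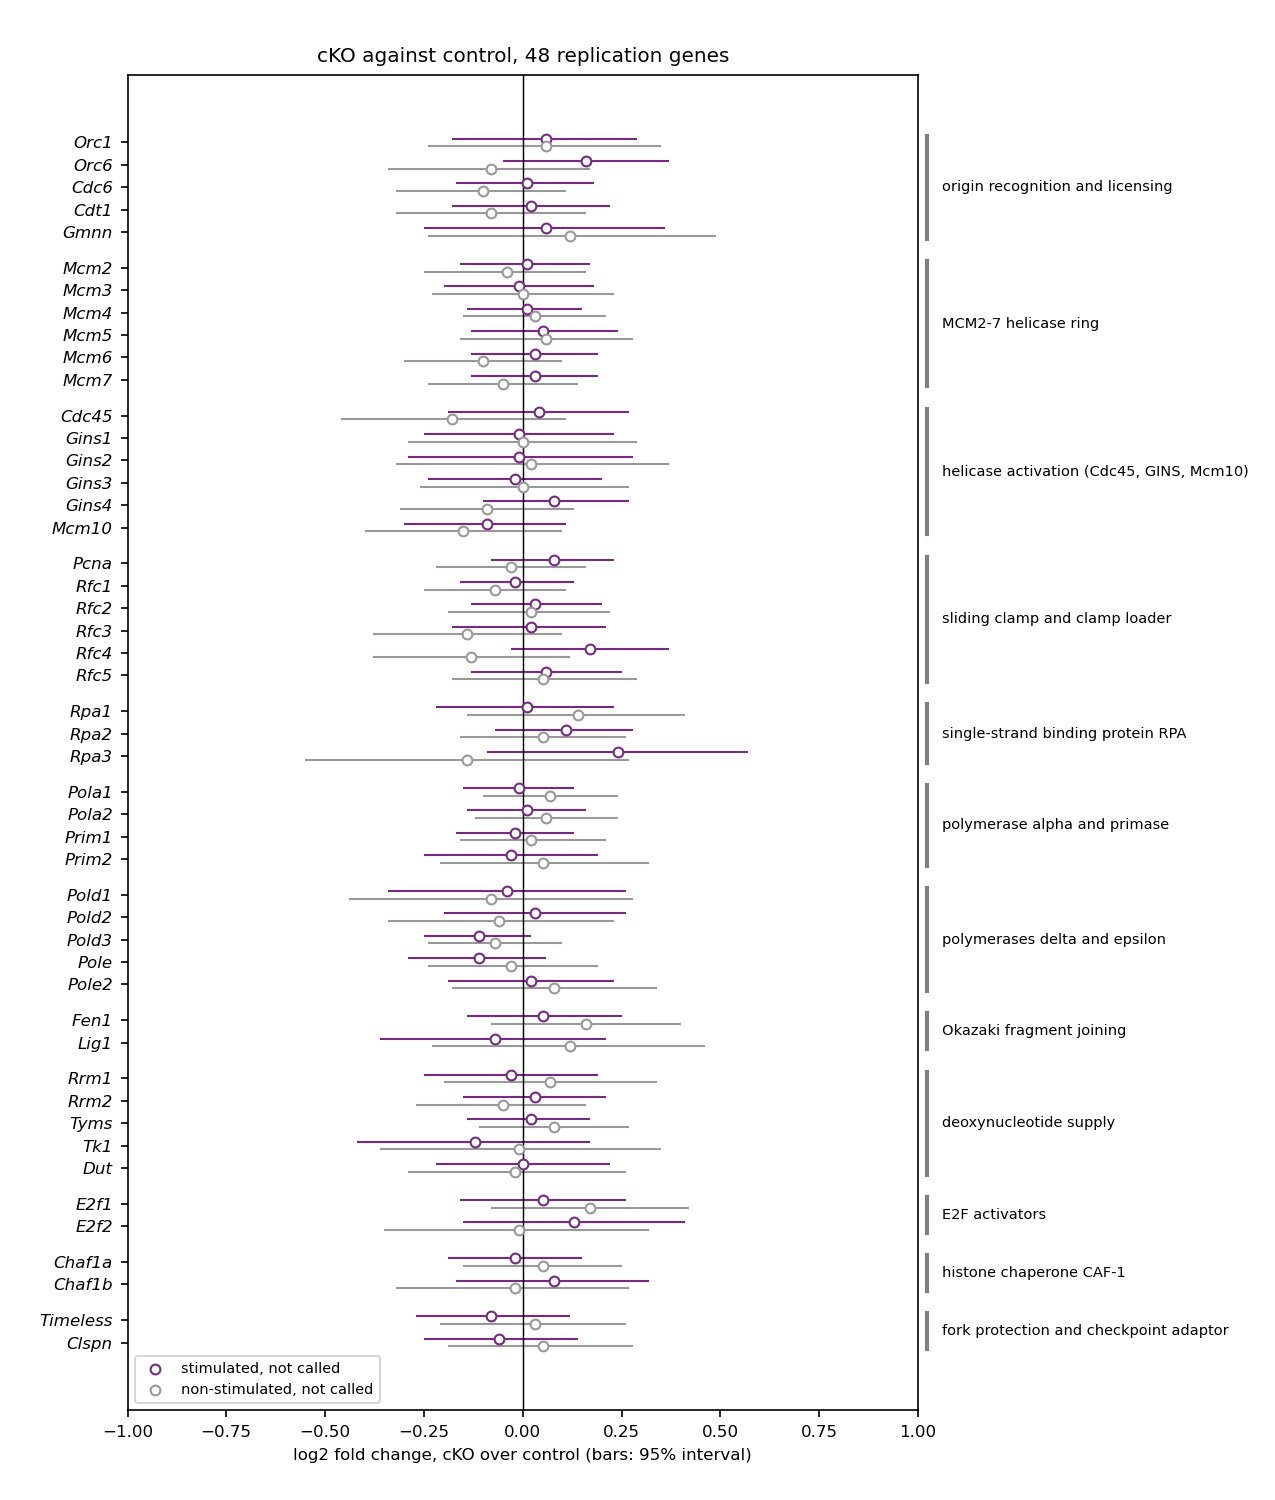
log2 fold change of each of the 48 replication genes, cKO over control, in stimulated (purple) and non-stimulated (grey) cells, with 95% intervals. Every interval includes 0, and estimates lie between -0.18 and 0.24.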

How the data were processed

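RNA-seq of 15 mouse Th2 libraries was used, made per the labels' protocols with a stranded total RNA kit after removal of ribosomal RNA. Estimated counts and TPM per gene were taken as deposited by the authors; the counts were not scaled between samples. The submitters' processing notes name Salmon 1.10.1, STAR 2.7.9a, cutadapt 3.4 and build GRCm39. The annotation release and the use of strand in counting are not given in the sources used here.

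Estimated counts were rounded to whole numbers. Using R 4.3.3 and edgeR 4.0.16, low genes were removed with filterByExpr, libraries were scaled by trimmed mean of M-values, and a robust quasi-likelihood model with 1 mean per group was fitted to all 15 libraries. The 5 comparisons had two-sided tests, p-values were adjusted over 15619 genes by Benjamini-Hochberg, and genes under 0.05 were called. The biological coefficient of variation was 15.4%. Errors of log2 fold changes are SE; CPM and TPM are given per library or as mean ± SD. TPM served for levels between genes and, with limma 3.58.1 on log2(TPM + 0.1) or log2(TPM + 1), as an alternative, which understates changes of low genes. Other settings tried were DESeq2 1.42.0, size factors by relative log expression, looser and stricter filters, only the groups compared, a block for the replicate number, and leaving out each library. Direction was compared between settings where a value was called. The model was tested on simulated data.

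The members and the further gene lists were chosen with earlier results of these data known. Values per library are given for the member with the smallest p in each of 12 role lists and for the 4 members with the smallest p in each comparison; from each further list the 4 genes with the smallest p are named. Other members were named freely. Promoter windows are from RefSeq (GRCm38.p6) and were searched by exact letters; no coordinates of the counts' build were used.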

Additional observations from a re-analysis of the deposited data

Results flagged for a closer look

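In 8 of 98 groups of 4 or 5 libraries, 1 library lay far from the others of its group by Dixon's ratio; chance gives about 1 in 20. Replicate 1 of stimulated cKO cells was high for Mcm3 (199 CPM, others 166 to 170), Mcm6 (283 CPM, others 257 to 261) and Pold2 (59.1 CPM, others 45.1 to 47.4). Replicate 3 of stimulated cKO cells was high for Rfc4 (43.6 CPM, others 34.9 to 36.4) and low for Pole (111 CPM, others 138 to 141). Replicate 4 of stimulated cKO cells was low for Timeless (60.0 CPM, others 69.0 to 70.3). In stimulated control cells, replicate 4 was low for Rfc1 (122 CPM, others 132 to 135) and replicate 3 was high for Clspn (95.5 CPM, others 80.4 to 83). Without replicate 1 of stimulated cKO cells Mcm3 was called lower in cKO cells (-0.28, edgeR adjusted p = 0.033).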

How the results depend on the processing

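On stimulation, 11 of 23 calls in cKO cells (Orc1, Rfc3, Rfc4 and Rpa3 higher, Cdt1, Mcm6, Mcm7, Rpa2, E2f1, E2f2 and Clspn lower) and 5 of 21 in control cells (Orc1 and Rfc3 higher, Cdt1, Mcm6 and E2f2 lower) held in all 25 alternatives. Leaving out 1 library gave 18 to 26 members called in cKO (medians -0.17 to -0.09) and 15 to 23 in control cells (-0.12 to -0.07). It ended 8 calls in each genotype in at least 1 fit. The shares of all genes called in these fits are not given here. The genotype medians then ran from -0.01 to 0.04 in stimulated and from -0.05 to 0.05 in non-stimulated cells, and those of the difference in response from -0.05 to 0.05, with 0 called.

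With log2(TPM + 0.1) and log2(TPM + 1), 13 and 12 members were called in cKO cells (median -0.22 in both) and 12 in control cells (0.03), the cause of which was not tested. These fits include replicate 3 of stimulated cKO cells, the library with the lowest summed TPM of the members (1486). The genotype medians were -0.07 in stimulated and 0.14 in non-stimulated cells, where all genes moved to 0.15, and those of the difference were -0.22 and -0.21, where all genes moved to -0.21. Pold3 in cKO cells changed sign (-0.06 and -0.05), as did Rbl1 in control cells (0.03 in both).

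Whether replicate numbers pair the libraries could not be decided from so few libraries. Deviations of same-numbered libraries correlated at -0.205 to 0.177, over 0.1 in 3 of 19 pairs. Within a genotype, the 6 same-numbered pairs ran from -0.205 to 0.11 with a median of 0.079, beside a median of 0.003 for different numbers. Of the 15 libraries, 4 correlated best with their own number. With a replicate block, 21 members were called in cKO and 17 in control cells, and 0 between genotypes; with a block within genotype, which gives no genotype comparison, 18 and 15. Without replicate 3 of stimulated cKO and replicate 3 of non-stimulated control cells, an alternative chosen after seeing the data, 21 and 22 members were called. The shares of all genes called with the blocks and in this alternative are not given here, so no change particular to the members is shown. Every member had at least 230 counts in every library, and groups of 3 to 5 libraries set the width of the intervals.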

Other observations

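Th2 markers moved with stimulation beside the replication genes. The summed CPM of 6 Th2 markers ran from 3220 to 4510 in stimulated and from 859 to 1170 in non-stimulated cKO libraries, and from 3560 to 4350 in stimulated and from 1020 to 1200 in non-stimulated control libraries, without overlap. Of the 6, 4 were called higher in cKO cells, and 4 higher and 1 lower in control cells, where 53.8% and 50.6% of all genes were called. Of the 5 CD4 T cell markers, 1 was called higher and 3 lower in each genotype, with medians of -0.41 in cKO and -0.47 in control cells. Across the 48 replication genes, the leading principal component of the 15 libraries held 70.7% of the variance and over all tested genes 65.7%.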
